A study of Mus musculus with 16 samples.

Results

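The genes described here encode actin and the proteins that assemble its filaments: Actb and Actg1 (the cytoplasmic actins), Tmsb4x, Tmsb10 and Pfn1 (proteins that bind actin monomers), Cfl1 (which severs filaments), Arpc1b and Arpc2 (subunits of the Arp2/3 complex) and Fscn1 (a bundling protein). Their probe sets were those to which the platform annotation gives exactly 1 gene symbol, where that symbol is 1 of these 9 genes. This left 8 of the 9 genes, among 8252 genes with such a probe set, and 15 probe sets, of which 8 belong to Actb and 1 to each of the other genes. Both probe sets that name Arpc1b name another gene as well, so Arpc1b has no values here. Of the 15 probe sets, 12 read the labelled target, which is antisense to the mRNA, and 3 Actb control probe sets read the opposite strand.

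The study measured adult mouse retina against cortex of postnatal day 1 (P1) mice on 1-colour Affymetrix oligonucleotide arrays. Of the 16 arrays, 5 per tissue were run at the first site and 3 per tissue at a place the labels name site 2, which makes 4 groups. Retinas came from C57/B6 mice, pooled from 350 animals, and cortices from a pool of 19 animals, which the sample descriptions call C57/B6 and the series' design text calls Swiss-Webster. Tissue, age and, by the design text, strain therefore differ together and cannot be told apart. No animal was treated and no gene was altered. Every array received cRNA made from an aliquot of 1 pool per tissue, so the p-values below speak for repeat arrays of the same RNA and not for animals. In bulk tissue, fewer cells of a type and less RNA per cell cannot be told apart.

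Actin monomers add to filaments at their fast-growing end, and cells hold a reserve of monomers bound to thymosin beta proteins and profilin. Cofilin removes older filament, the Arp2/3 complex starts new branches from the side of existing filaments, and fascin packs filaments into the parallel bundles of filopodia. Growing neurites depend on these steps at the growth cone. In the adult retina actin is best known from synapses, glial end feet, microvilli and the connecting cilium of photoreceptors.

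Serum response factor, which responds to the level of free actin monomers, binds a motif called the CArG box in the promoters of many actin genes. The RefSeq promoter table (mouse, GRCm38.p6) held 10 promoters for 8 of the 9 genes, all but Actb, with 3 of them for Tmsb10. The 250 bases before the start site are shown for Actg1, the only promoter of the 10 with a CArG box on either strand, for Fscn1, which holds a TATA box and a cyclic AMP response element (CRE), and for Tmsb4x, whose intensity differed most between the tissues at the first site. Capitals mark the matches, and all 3 are written 5′ to 3′ on the gene's own strand.
Actg1, chr11:120348496-120348745, minus strand: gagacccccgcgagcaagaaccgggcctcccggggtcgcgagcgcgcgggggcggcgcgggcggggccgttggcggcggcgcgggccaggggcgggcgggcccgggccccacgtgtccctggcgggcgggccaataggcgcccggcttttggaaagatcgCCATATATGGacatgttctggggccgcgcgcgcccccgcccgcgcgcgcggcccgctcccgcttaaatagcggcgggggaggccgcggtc
Fscn1, chr5:142960105-142960354, plus strand: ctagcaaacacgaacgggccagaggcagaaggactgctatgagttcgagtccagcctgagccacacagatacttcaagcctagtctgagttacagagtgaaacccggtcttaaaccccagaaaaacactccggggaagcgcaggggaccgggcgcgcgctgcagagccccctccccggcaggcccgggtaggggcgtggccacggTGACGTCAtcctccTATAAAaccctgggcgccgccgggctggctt
Tmsb4x, chrX:167209219-167209468, minus strand: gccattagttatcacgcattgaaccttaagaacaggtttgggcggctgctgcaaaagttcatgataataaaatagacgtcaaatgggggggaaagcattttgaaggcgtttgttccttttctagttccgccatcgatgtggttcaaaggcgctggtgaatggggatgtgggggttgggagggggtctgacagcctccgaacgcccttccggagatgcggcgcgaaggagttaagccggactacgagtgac
In Actg1 the CArG box lies from -90 to -81, counted from the start site. In Fscn1 the CRE (TGACGTCA) lies from -45 to -38 and the TATA box (TATAAA) from -31 to -26. The CArG box was found in 482 of 32851 promoters (1.47%), TATAAA in 4063 (12.4%) and TGACGTCA in 508 (1.55%), with both strands searched. The last 2 motifs were added to the search after the sequences had been read.

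The deposited values are intensities with array medians between 45.7 and 215. Values below are intensities scaled to a median of 100 on each array, so the level of a gene is compared between groups, 1 probe set at a time. Differences are retina minus cortex, or site 2 minus first site, on the log2(intensity + 16) scale with SE, and every adjusted p is from limma over all 12444 probe sets tested, with a call at an adjusted p under 0.05. At each site, 5 of 6 Mueller glia markers were higher in retina and 6 of 6 newborn cortical neuron genes were lower. Age differs along with tissue, so these counts alone do not tell retina from other adult tissue. Site 2 cortex replicate 2 stood apart, with a median of 45.7, a summed intensity of 2.53e+06 and a mean correlation of 0.943 with its own group, against 0.965 to 0.991 for the other 15 arrays. Where leaving it out changed the call of a value printed below, both values are given.

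Of the 12 probe sets that read the mRNA, 10 were lower in retina at the first site, 1 was higher and 1 was not called. Of all probe sets tested, 47.1% were called there, 25.1% lower and 21.9% higher. The median difference of the 12 was -0.87, against -0.05 over all probe sets. At site 2, 8 of the 12 were lower, 2 higher and 2 not called, against 32.5% called over all, 15.9% lower and 16.7% higher, with a median of -0.89 against -0.02. The tissues did not overlap, with retina below cortex, for 9 of the 12 at the first site (20.4% of all probe sets) and for 8 at site 2 (22.2%), where 2 lay wholly above (22% of all). The exceptions were Actb and Pfn1 probe sets and, at site 2, Actg1. Without centring the arrays on their medians, 10 of the 12 were called at the first site and 3 at site 2, which were Tmsb4x and the Actb 5′ and middle probe sets.

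**Figure D1:**
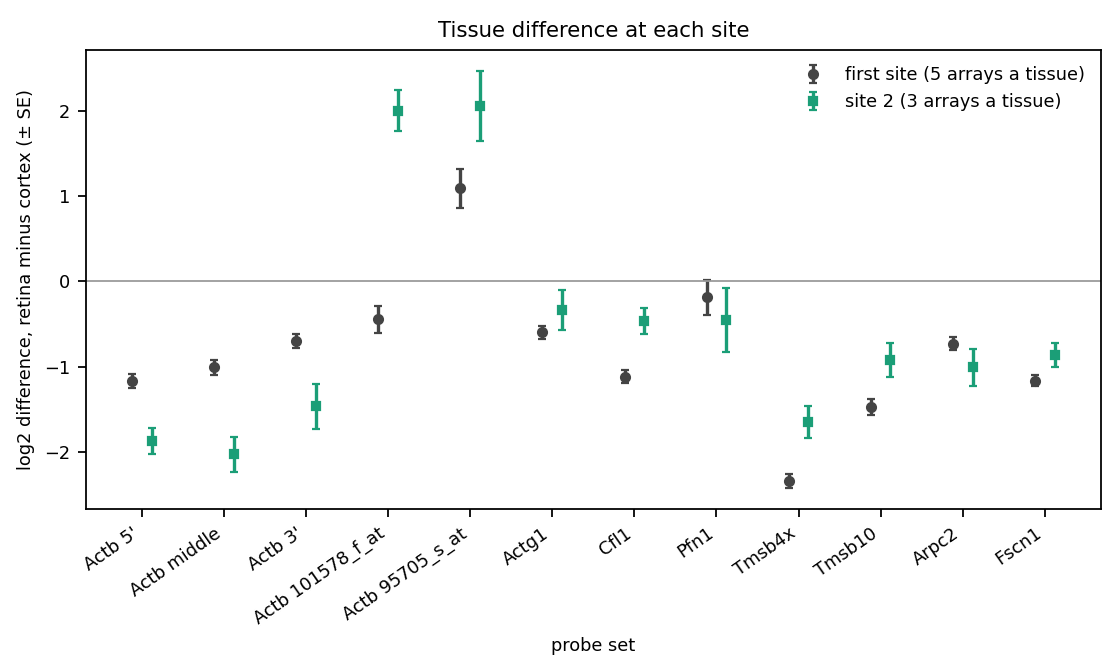
Log2 difference of retina minus cortex (points, with SE bars) for the 12 probe sets that read the mRNA, at the first site (circles) and at site 2 (squares). Tmsb4x lies lowest at the first site, at -2.34, while the Actb probe set 101578_f_at lies at -0.44 at the first site and 2.01 at site 2.

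Tmsb4x encodes thymosin beta 4, the main monomer-sequestering peptide of many cells. Its probe set (96426_at) read 939, 1068, 1186, 966 and 968 on the first-site retina arrays and 5680.1, 5385, 4719, 5644 and 5046 on the cortex arrays. At site 2 it read 1452, 1704 and 1727 in retina and 4498, 7815 and 4122 in cortex. Every retina array lay below every cortex array at either site. The difference was -2.34 ± 0.08 at the first site (5.08-fold lower in retina, adjusted p = 5.8e-13) and -1.65 ± 0.19 at site 2 (3.15-fold, adjusted p = 7.8e-05). In order of level, first-site retina (1025 ± 102, SD, n = 5) was lowest and site 2 retina (1628 ± 152, n = 3) next, and these differed by 0.65 ± 0.13 (adjusted p = 5.5e-04). First-site cortex (5295 ± 410) and site 2 cortex (5478 ± 2032) did not differ beyond their spread (-0.04 ± 0.13, adjusted p = 0.87). The interaction of tissue and site, 0.69 ± 0.18, passed the threshold (adjusted p = 0.038) and lost the call under 19 of 26 alternatives.

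Tmsb10 encodes thymosin beta 10, a close relative that also binds monomers. Its probe set (98129_at) read 2702, 2878, 2580.0, 2774 and 2329 in first-site retina and 7915, 7699, 6021, 7678 and 8190.5 in first-site cortex. The site 2 values were 2546, 3487 and 3509 in retina and 5233, 8852 and 4907 in cortex. Again no retina array reached a cortex array of its site. Tmsb10 was lower in retina by -1.48 ± 0.09 at the first site (2.79-fold, adjusted p = 1.1e-09) and by -0.92 ± 0.20 at site 2 (1.89-fold, adjusted p = 4.8e-03). The groups fell into 2 levels: retina at 2653 ± 211 and 3180.4 ± 549.6, and cortex at 6331 ± 2189 (site 2) and 7501 ± 853 (first site), with no difference between sites called within either tissue. Without site 2 cortex replicate 2 the cortex groups differed by -0.49 (adjusted p = 0.0082), against -0.32 ± 0.14 with it. The interaction was 0.56 ± 0.20 (adjusted p = 0.13), and 0.73 without site 2 cortex replicate 2 (adjusted p = 0.018).

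Pfn1 encodes profilin 1, which exchanges the nucleotide on monomers and delivers them to growing ends. Its probe set (96070_at) was dim: 60.2, 126, 115, 116 and 135 in first-site retina and 127, 150.0, 168, 117 and 73.8 in first-site cortex. Site 2 gave 27.1, 98.9 and 111 in retina and 104, 117 and 83.3 in cortex. The tissues overlapped at both sites. The difference was -0.18 ± 0.21 at the first site (95% confidence interval -0.62 to 0.25, adjusted p = 0.52) and -0.45 ± 0.37 at site 2 (-1.28 to 0.38, adjusted p = 0.45), so a difference of either sign was within the error. Without site 2 retina replicate 1, the array at 27.1, the site 2 difference was 0.07. None of the 4 groups differed from its neighbour in level beyond the spread of the arrays.

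Counts of listed genes, here and below, stand beside 25.1% of all probe sets lower and 21.9% higher in retina at the first site. At site 2 those shares were 15.9% and 16.7%. Among the 5 genes measured of the 6 listed for monomer binding, 4 were lower in retina at both sites. Beside the thymosins these were Pfn2, the profilin found mainly in neurons (-0.997 ± 0.075 at the first site, -0.60 ± 0.17 at site 2), and Twf2, a twinfilin (-1.35 ± 0.13 and -0.94 ± 0.28).

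**Figure D2:**
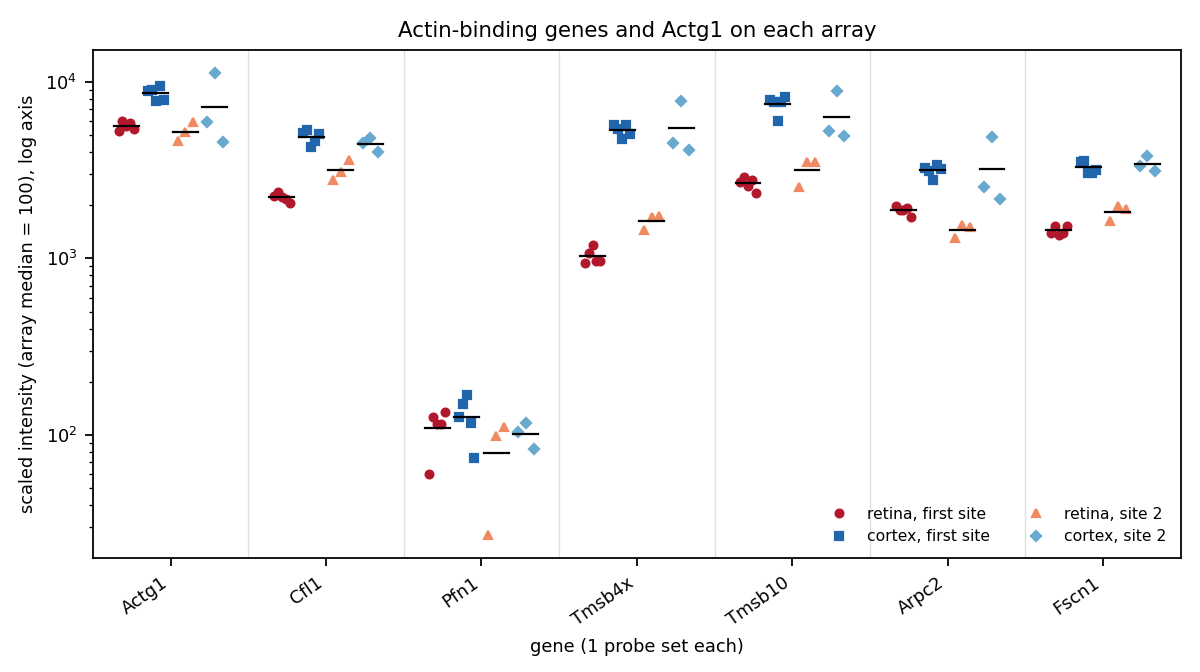
Scaled intensity (array median of 100, log axis) of 7 genes on each of the 16 arrays, with a black line at each group mean. Retina and cortex arrays lie apart at both sites for Tmsb4x, Tmsb10, Cfl1, Arpc2 and Fscn1, and the tissues overlap for Pfn1 at both sites and for Actg1 at site 2.

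Cfl1 encodes cofilin 1, which severs filaments and speeds the loss of subunits. Its probe set (99119_at) read 2256, 2379.6, 2209, 2179 and 2050.2 in first-site retina and 5117, 5302, 4261, 4609 and 5026 in first-site cortex. At site 2 it read 2763, 3077 and 3582 in retina and 4506, 4808 and 3981 in cortex. The tissues did not overlap at either site, and the gap was narrower at site 2. Cfl1 was lower in retina by -1.12 ± 0.08 at the first site (2.17-fold, adjusted p = 2.8e-09) and by -0.47 ± 0.15 at site 2 (1.38-fold, adjusted p = 0.042), a call lost under 11 of 17 alternatives. The interaction was 0.65 ± 0.15 (adjusted p = 0.016, lost under 4 of 26 alternatives), and between sites the retina arrays differed by 0.48 ± 0.10 (adjusted p = 1.2e-03) and the cortex arrays by -0.17 ± 0.10 (adjusted p = 0.3).

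Of 14 listed genes of cofilin and its regulators, 11 were measured, of which 6 were lower and 1 higher in retina at the first site and 6 lower and 2 higher at site 2. Cfl2, the cofilin best known from muscle, had a larger difference than Cfl1, with -1.78 ± 0.10 and -1.90 ± 0.14. Coro1a, a coronin of leukocytes and neurons, was at -1.66 ± 0.12 and -1.42 ± 0.19, and Coro1b, another coronin, was higher in retina, at 0.27 ± 0.09 and 0.88 ± 0.20.

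Arpc2 encodes a subunit at the core of the Arp2/3 complex. Its probe set (93288_at) read 1986, 1876, 1885, 1924 and 1708 in first-site retina and 3263, 3128, 2786, 3378 and 3183 in first-site cortex. The site 2 readings were 1306, 1540.0 and 1499.5 in retina and 2534, 4883 and 2160.1 in cortex. The cortex arrays were all above the retina arrays. Arpc2 was lower in retina by -0.73 ± 0.08 at the first site (1.66-fold, adjusted p = 4.4e-07) and by -1.01 ± 0.22 at site 2 (2.01-fold, adjusted p = 4.8e-03), or -0.75 without site 2 cortex replicate 2. From low to high, the group means were site 2 retina (1449 ± 125), first-site retina (1876 ± 104), first-site cortex (3148 ± 223) and site 2 cortex (3192 ± 1476). By medians the cortex groups stood in the other order, with 2534 at site 2 and 3183 at the first site. The cortex groups differed by -0.11 ± 0.14 (adjusted p = 0.69), and by -0.36 without site 2 cortex replicate 2, the array at 4883 (adjusted p = 0.0092). The retina groups differed by -0.38 ± 0.14 (adjusted p = 0.04), a call lost under 12 of 18 alternatives.

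Of the 9 listed subunits of the Arp2/3 complex, 6 were measured, and 5 were lower in retina at the first site and 3 at site 2. Arpc5 had the largest difference (-1.62 ± 0.11 and -1.91 ± 0.15), and Actr3, the Arp3 subunit itself, was at -0.82 ± 0.08 and -0.45 ± 0.14, the latter call lost under 11 alternatives. Arpc4 was at -0.81 ± 0.07 at the first site and 0.26 ± 0.15 at site 2 (adjusted p = 0.27), and its interaction was called (1.06, adjusted p = 1.6e-04). The activators were mixed: of 8 measured, 3 were lower and 1 higher at the first site, and 2 lower and 1 higher at site 2. Brk1, a small subunit of the WAVE complex that switches Arp2/3 on, was lower (-1.22 ± 0.11 and -0.57 ± 0.14), and Cyfip2, another subunit of that complex, was higher (0.38 ± 0.08 and 0.60 ± 0.18).

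Fscn1 encodes fascin, the bundling protein whose promoter is shown above. Its probe set (92838_at) read 1392, 1531, 1360.4, 1392 and 1522 in first-site retina and 3516, 3566, 3053, 3058 and 3143 in first-site cortex. At site 2 the readings were 1619, 1988 and 1895 in retina and 3348, 3802 and 3115 in cortex. The tissues stood clearly apart, and the cortex arrays of the sites overlapped. Fscn1 was lower in retina by -1.16 ± 0.07 (2.24-fold, adjusted p = 3.5e-10) at the first site and by -0.86 ± 0.14 (1.82-fold, adjusted p = 1.1e-03) at site 2. The cortex groups differed by 0.03 ± 0.09 (adjusted p = 0.88) and the retina groups by 0.33 ± 0.09 (adjusted p = 7.9e-03, lost under 4 of 18 alternatives). Of 15 listed bundling and crosslinking genes, 10 were measured, with 5 lower and 1 higher at the first site and 5 lower at site 2. Dbn1, which encodes the drebrin of growing neurites and dendritic spines, was at -3.66 ± 0.16 and -3.50 ± 0.15, while Actn4, an alpha-actinin, was higher at the first site (0.71 ± 0.12) and at 0.30 ± 0.20 at site 2 (adjusted p = 0.32), or 0.52 without site 2 cortex replicate 2 (adjusted p = 0.0029).

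Actg1 encodes gamma actin, 1 of the 2 actins that most cells make. Its probe set (96573_at) read 5261, 5978, 5611, 5812 and 5398 in first-site retina and 8857, 8991, 7729, 9441 and 7858 in first-site cortex, with no overlap. At site 2 it read 4589, 5166 and 5894 in retina and 5922, 11149.6 and 4534 in cortex, with overlap. Actg1 was lower in retina at the first site by -0.60 ± 0.08 (1.51-fold, adjusted p = 7.0e-06). The site 2 difference was -0.33 ± 0.24 (95% confidence interval -0.86 to 0.20, adjusted p = 0.36), and -0.06 without site 2 cortex replicate 2, the array at 11149.6. The interaction was 0.26 ± 0.22 (adjusted p = 0.62), and 0.53 without that array (adjusted p = 0.045). Of the 4 muscle actins, read by 1 probe set each, 3 were lower in retina at the first site and 2 at site 2. Acta1 (-0.67 ± 0.12 and -0.88 ± 0.16) and Actc1 (-0.81 ± 0.09 and -0.70 ± 0.15) were lower at both. With all 5 probe sets of these genes counted, 1 was called higher in retina at each site, and the site 2 median was -0.11 instead of -0.41. Muscle actins share long coding stretches with Actb and Actg1, so the gene that a probe set reads is uncertain across this family.

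Actb encodes beta actin, and its 5 mRNA-reading probe sets did not give 1 answer. Of these, 3 are array controls placed along the transcript, toward its 5′ end, its middle and its 3′ end. The 3′ probe set read 6222, 7302, 6854, 7229.6 and 6599 in first-site retina and 11793, 12695, 9846, 11018 and 10556 in cortex. At site 2 it read 2738, 3244 and 3079 in retina and 6944, 15847 and 5664 in cortex. The tissues did not overlap at either site for any of these 3 probe sets. At the first site the difference was -1.17 ± 0.09 at the 5′ end (adjusted p = 6.4e-09), -1.01 ± 0.08 in the middle (adjusted p = 3.1e-08) and -0.69 ± 0.08 at the 3′ end (adjusted p = 2.2e-06). At site 2 the differences were -1.87 ± 0.15 (adjusted p = 8.0e-06), -2.03 ± 0.20 (adjusted p = 3.6e-05) and -1.47 ± 0.27 (adjusted p = 1.8e-03), the last -1.12 without site 2 cortex replicate 2.

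The other Actb probe sets, 101578_f_at and 95705_s_at, went another way. By the manufacturer's naming, the suffixes f and s mark probe sets that can read several related sequences. Probe set 101578_f_at read 697, 902, 724, 1055 and 952 in first-site retina and 1218, 1028, 1005, 1874 and 949.7 in cortex, which overlap. At site 2 it read 225, 239.6 and 209 in retina and 55.1, 12.5 and 63.7 in cortex, with retina above cortex. Its difference was -0.44 ± 0.16 at the first site (adjusted p = 0.03, lost under 8 of 21 alternatives) and 2.01 ± 0.24 at site 2 (adjusted p = 1.1e-04), with an interaction of 2.45 ± 0.29 (adjusted p = 3.2e-05). Probe set 95705_s_at was higher in retina at both sites: 577, 687, 690.2, 942 and 1301 against 368, 386, 270.2, 681 and 266 at the first site, where the groups overlap, and 324, 231 and 263 against 119, 3.72 and 59.8 at site 2. Those differences were 1.09 ± 0.23 (adjusted p = 7.5e-04) and 2.06 ± 0.41 (adjusted p = 3.1e-03, or 1.54 without site 2 cortex replicate 2). On that array both probe sets were at or under the level of the no-target controls, so their cortex level at site 2 was measured on 2 of 3 arrays.

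**Figure D3:**
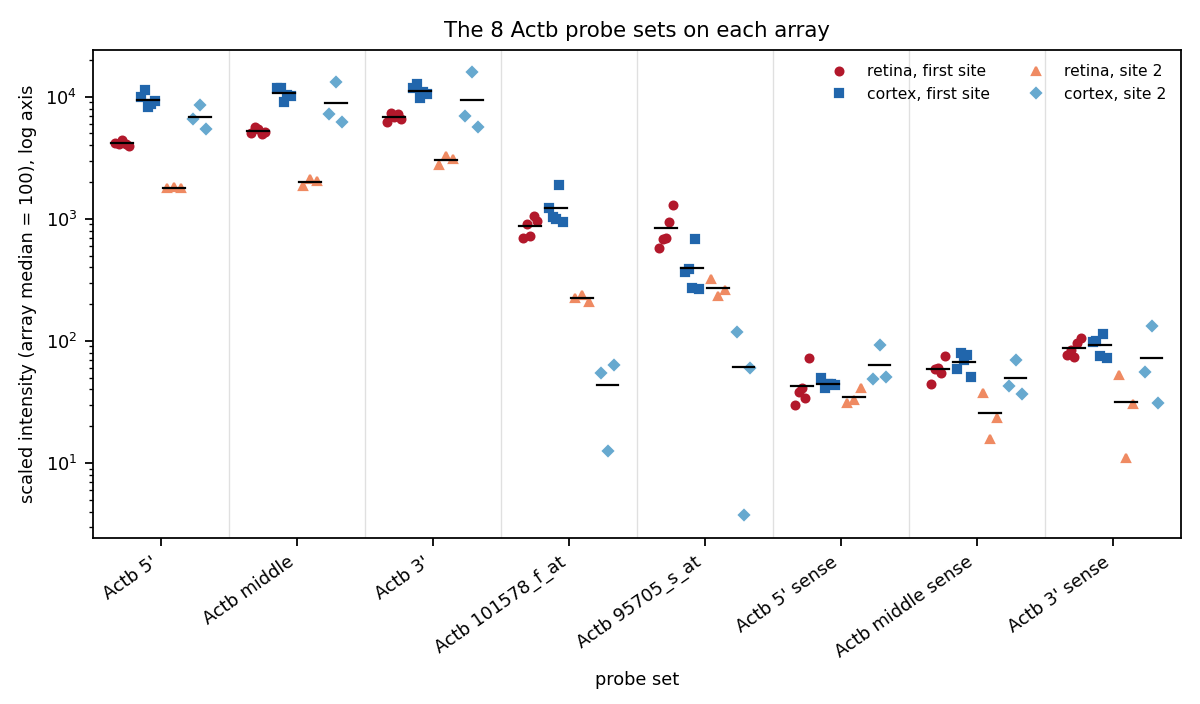
Scaled intensity (array median of 100, log axis) of the 8 Actb probe sets on each array, with a black line at each group mean. Retina lies below cortex for the 5′, middle and 3′ probe sets, and 101578_f_at and 95705_s_at fall at site 2 in both tissues, to 12.5 and 3.72 on 1 cortex array.

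The 3 opposite-strand Actb probe sets gave group means between 25.5 and 92.4. None was called between the tissues at either site, with first-site differences of -0.10 ± 0.18, -0.16 ± 0.15 and -0.07 ± 0.14 at the 5′ end, the middle and the 3′ end. At site 2 they were at -0.60 ± 0.26, -0.64 ± 0.30 and -0.77 ± 0.46, or -0.33, -0.38 and -0.29 without cortex replicate 2, and the tissues did not overlap for the 5′ one, with retina at 30.8 to 41.2 and cortex at 49.1 to 92. In retina the middle and 3′ ones were lower at site 2 (-0.88 ± 0.22 and -1.23 ± 0.31, both with an adjusted p of 3.8e-03).

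The ratio of 3′ to 5′ signal is used as a measure of how far labelling reached along the transcript. For Actb it ran from 1.50 to 1.79 on first-site retina arrays and from 1.13 to 1.26 on first-site cortex arrays. At site 2 it was 1.53 to 1.77 in retina and 1.05, 1.85 and 1.04 in cortex, the high value again being replicate 2. For Gapdh, a glycolytic enzyme with control probe sets of the same kind, the tissues overlapped at the first site (0.823 to 0.952 in retina, 0.765 to 0.894 in cortex). At site 2 the Gapdh ratio was 0.856 to 0.929 in retina and 0.812, 1.66 and 0.807 in cortex. Replicate 2 was again the high one, and the other cortex arrays lay below the retina arrays. The Actb 3′ probe set was also the brightest of the whole array on 3 of 5 first-site cortex arrays and at least 94.0% of the maximum on the others, against 56.6% to 63.6% in retina. The part of transcript coverage or of brightness in the Actb differences was not tested.

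**Figure D4:**
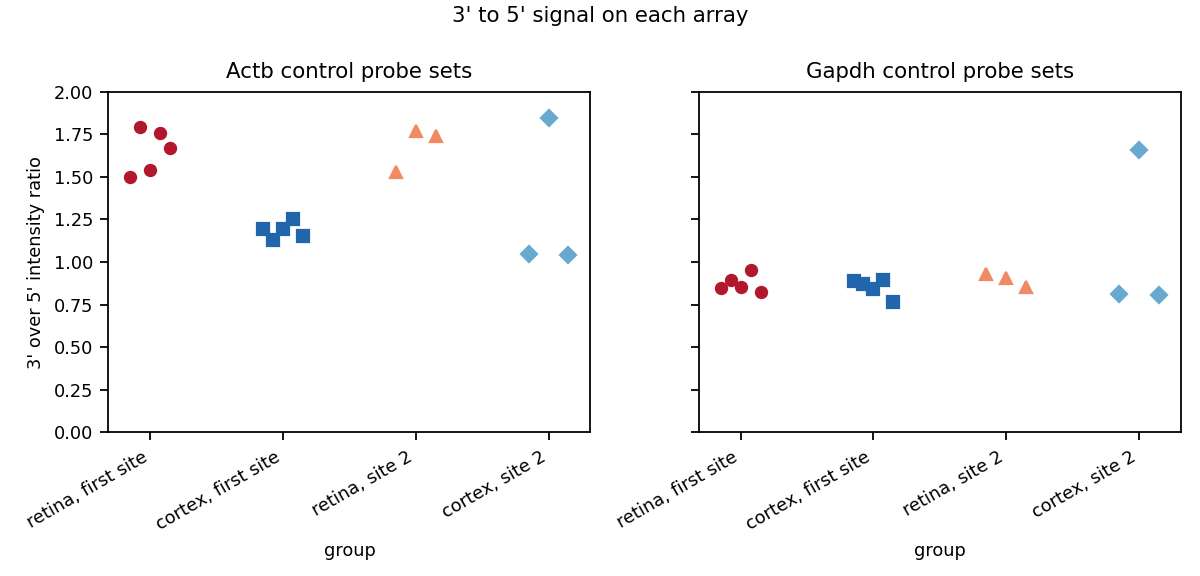
Ratio of 3′ to 5′ intensity of the Actb (left) and Gapdh (right) control probe sets on each array, by group. First-site retina and cortex lie apart for Actb (1.50 to 1.79 against 1.13 to 1.26) and overlap for Gapdh, and 1 site 2 cortex array is high in both.

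Between sites, the same retina pool gave different values for most of these genes. Of the 12 probe sets, 3 were higher at site 2 in retina (Tmsb4x, Cfl1 and Fscn1) and 6 lower (Arpc2 and the 5 of Actb), where 35.7% of all probe sets were called, 23.1% higher and 12.6% lower. For the same 9 the retina arrays of the sites did not overlap, which held for 26.7% of all probe sets upward and 15.8% downward. The Actb control probe sets differed by -1.21, -1.39 and -1.19 from the 5′ end to the 3′ end, and 101578_f_at and 95705_s_at by -1.88 and -1.53. In cortex 3 were lower, all of Actb, and none higher, against 16.7% of all probe sets called, 6.42% lower and 10.2% higher. These were the 5′ control (-0.51 ± 0.11, adjusted p = 3.1e-03), 101578_f_at (-4.33 ± 0.21, adjusted p = 7.3e-11) and 95705_s_at (-2.50 ± 0.34, adjusted p = 8.8e-05). Without site 2 cortex replicate 2 the cortex count was 8, adding the Actb middle and 3′ controls, Actg1 (-0.66, adjusted p = 0.00041, against -0.39 ± 0.15 with it), Arpc2 and Tmsb10. The interaction was called for 5 of the 12, against 3.38% of all probe sets, and for 2 of the 7 probe sets of genes other than Actb. It was positive (2.07% of all) for Tmsb4x, Cfl1 and 101578_f_at and negative (1.31%) for the Actb 5′ (-0.70 ± 0.15, adjusted p = 0.014, lost under 2 alternatives) and middle (-1.02 ± 0.19, adjusted p = 4.9e-03) probe sets.

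**Figure D5:**
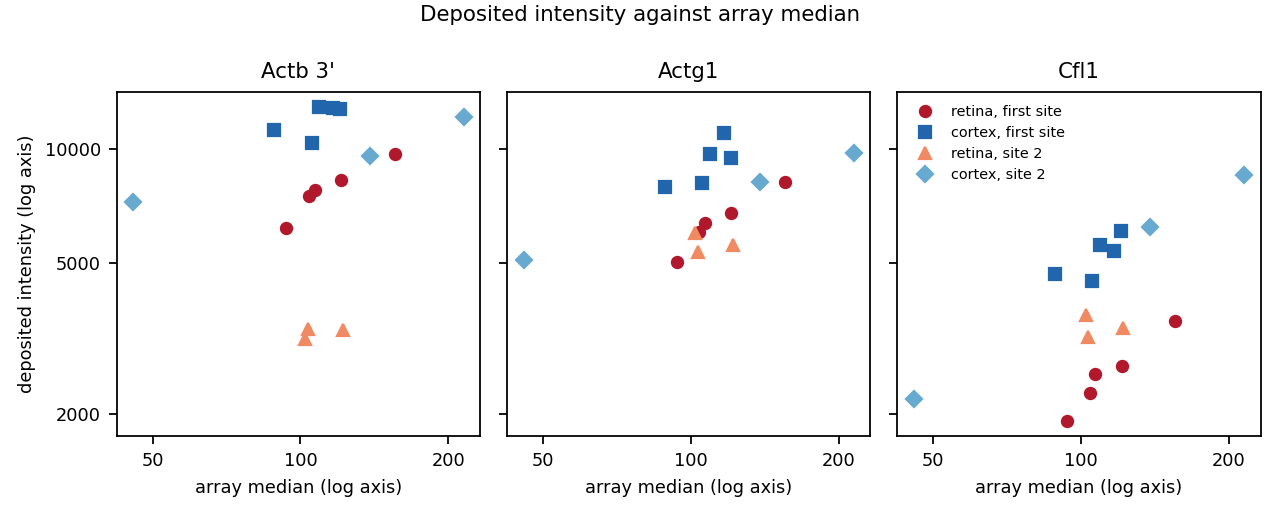
Deposited intensity of the Actb 3′ probe set, Actg1 and Cfl1 against the median of the same array (log axes), by group. The site 2 cortex array with a median of 45.7 lies far to the left of the other 15, and Actb reads 7234 there, against 9611 and 12173 on the other site 2 cortex arrays.

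The wider actin machinery was read from 12 lists with 119 genes in all, of which 94 were measured. Of the lists, only the members Cfl1, Pfn1, Tmsb4x, Tmsb10, Arpc2 and Fscn1 were then left out. The other listed genes named above, such as Dbn1 and Arpc5, were still counted. Of the 88 that remained, 44 were lower in retina and 15 higher at the first site, with a median of -0.27. At site 2, 35 were lower and 6 higher, with a median of -0.37. Over all probe sets, 25.1% were lower and 21.9% higher at the first site and 15.9% and 16.7% at site 2, and the counts of single lists below are small. Of the membrane linkers, 5 of 10 were lower at each site and 2 higher at the first. Gap43, a growth cone protein (-3.42 ± 0.10 and -2.99 ± 0.22), and Marcksl1 (-3.18 ± 0.08 and -2.44 ± 0.14) were among the lower, and Rdx, encoding radixin, was higher at the first site (0.47 ± 0.08) and at 0.32 ± 0.14 at site 2 (adjusted p = 0.12), or 0.39 without site 2 cortex replicate 2 (adjusted p = 0.0069).

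Elongation factors had 5 of 8 lower and 2 higher at the first site and 3 lower at site 2. With all 15 probe sets of these genes counted, 8 were lower and 2 higher at the first site and 4 lower at site 2. The site 2 median was then -0.15 instead of -0.43. Evl, of the Ena/VASP family, was at -1.52 ± 0.09 and -0.92 ± 0.16, and the formin Diaph3 was at 0.84 ± 0.13 and 0.48 ± 0.20, the latter called only without site 2 cortex replicate 2 (0.52, adjusted p = 0.042) and under 2 other alternatives. Among capping and severing genes, 3 of 9 were lower and 2 higher at the first site and 3 lower at site 2, with Tmod3, a tropomodulin, at -1.25 ± 0.07 and -1.72 ± 0.28 and Gsn, gelsolin, at -1.01 ± 0.17 and -0.72 ± 0.19. Of tropomyosins and non-muscle myosin genes, 4 of 9 were lower and 2 higher at the first site and 2 lower and 1 higher at site 2, with Tpm4 at -1.36 ± 0.08 and -1.55 ± 0.30. The serum response factor list had 1 of 6 lower and 2 higher at both sites. Fhl2, a cofactor, was lower (-1.42 ± 0.11 and -2.03 ± 0.19), and the targets Ccn2 (1.14 ± 0.09 and 1.26 ± 0.14) and Egr1 (0.70 ± 0.08 and 0.60 ± 0.18) were higher in retina. Leaving out 1 array ended the first-site call of Coro1b and the site 2 calls of Actr3, Brk1, Cyfip2, Twf2, Gsn and Egr1.

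Some markers of other cell types were also called between the tissues, and the part of those cells in the results was not tested. Of 15 microglia and macrophage markers, 9 were lower in retina and 1 higher at the first site, and 4 lower and 1 higher at site 2. Their summed scaled intensity ran from 1524 to 1619 in retina and from 1768 to 1941 in cortex at the first site, and from 1584 to 1718 and 1876 to 2250 at site 2, with Ptprc at or under the no-target level in all 4 groups. With all 24 probe sets of these markers counted, 9 were lower at the first site and 5 at site 2, with 1 higher at each. The site 2 median was then -0.14 instead of -0.44. Of 8 smooth muscle and pericyte markers, 3 were lower at the first site (sum 325 to 373 against 438 to 548) and 1 at site 2 (370.1 to 417 against 509 to 571), with Cnn1 and Myh11 at or under that level in all 4 groups. Endothelial markers had 6 of 9 lower and 2 higher at both sites. Meningeal fibroblast markers had 6 of 7 lower and erythroid markers 3 of 3 lower at both sites, and markers of dividing cells 5 of 7 at the first site and 4 at site 2. Over all probe sets, 25.1% were lower at the first site and 15.9% at site 2. Neither of 2 platelet markers was called at either site.

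Over the 16 arrays the centred log2 values of the genes resembled each other unequally. Such correlations describe 2 RNA pools at 2 sites more than 16 independent points. Pearson's r was 0.98 for Tmsb4x with Fscn1, 0.97 for Tmsb4x with Tmsb10 and 0.96 for Cfl1 with Fscn1, and 0.92 for Actb (3′ probe set) with Arpc2 but 0.47 for Actb with Cfl1. Pfn1 reached at most 0.54 with any of the others. Of 4874 genes ranked, the nearest were Crmp1 for Tmsb4x (0.99), Tubb2a for Tmsb10 (0.98), Uchl1 for Fscn1 (0.996), Fdps for Cfl1 (0.99), Ppp3ca for Arpc2 (0.97), Tpt1 for Actg1 (0.94) and Tnpo3 for Actb (0.98). Next came Mllt11 and Amz2 for Tmsb4x, Rplp0 and Tubb3 for Tmsb10, 6330403K07Rik and Amz2 for Fscn1, Banf1 and Lrp1 for Cfl1, Sox2 and Basp1 for Arpc2, Tuba1a and Tuba1c for Actg1, and Akap9 and Npy2r for Actb.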

How the data were processed

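The authors deposited 1 linear intensity per probe set and array. How they were summarised, background-corrected and scaled is not given in the sources used here. Per the labels' protocols, each array took biotinylated cRNA from about 10 µg of TRIzol-extracted RNA. Of 12488 probe sets, 44 control sets without a mouse symbol were left out. Symbols came from the platform annotation: 10855 probe sets have 1, 396 have several and 1237 have none here, and 10839 of the first kind were found in the RefSeq table of GRCm38.p6 and updated.

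Values were turned into log2(intensity + 16) and centred on each array's median, a scale that understates the change of dim probe sets. limma 3.58.1 in R 4.3.3 (lmFit, eBayes with an intensity trend, two-sided, Benjamini-Hochberg over 12444 probe sets) was fitted for each site, and over all 16 arrays for sites and interaction, and was tested on simulated data. Tables and figures used Python 3.11.15. Background was the highest of 13 no-target controls per array (8.8 to 38.3 in deposited intensity), and 68.5% to 78.8% of probe sets lay above it. The number of arrays limits the precision.

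All probe sets of the chosen genes are reported. Further named genes were the called genes with the largest first-site difference in each direction, up to 3 per list. The 3 genes nearest each member by Pearson's r among genes above the median intensity were also named, which left Pfn1 unranked. Of the genes picked from the lists reported, Cttn, Acta2, Vil1, Fmnl1, Myh10 and Myl12b are printed without their first-site difference. Vil1 and Myl12b were higher in retina there, the Myl12b call being lost under 10 of 21 alternatives, and the others were lower. A gene in a list was read by its brightest probe set. With every probe set counted, the site 2 median moved from -0.45 to -0.24 for bundling and crosslinking genes and from -0.19 to -0.23 for tropomyosins and myosins. The results of 1 list are not reported here. The genes and lists were chosen with earlier results of these data known. Pfn2 was named outside this rule, after its values were seen. Alternatives covered the pseudocount, centring, quantile normalization, filtering, the control probe sets, the intensity trend, a replicate block, the samples fitted together and leaving out each array.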

Additional observations from a re-analysis of the deposited data

Results flagged for a closer look

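The tissue difference of 5 probe sets differed between the sites by the interaction test (limma, adjusted over all probe sets). It was 2.45 for Actb 101578_f_at, -0.70 for the Actb 5′ and -1.02 for the Actb middle control probe set, 0.65 for Cfl1 and 0.69 for Tmsb4x. Of 26 alternatives, 19 lost the Tmsb4x call, 4 the Cfl1 call and 1 the 101578_f_at call. Of 25, 2 lost the Actb 5′ call and 1 the middle call. For 101578_f_at, 1 site 2 cortex array lay at or under the level of the no-target controls.

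Pfn1 was marked by an extreme array. Among the first-site retina arrays, replicate 1 read 60.2 and the others 115 to 135 in scaled intensity, and on the centred log2 scale the gap was 0.808 of the group's range, above Dixon's critical value for 5 values. Of 30 groups of arrays tested in this way, 1 was marked, and chance marks about 1 in 20.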

How the results depend on the processing

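The first-site calls changed little: 8 to 11 of the 12 probe sets were called under every alternative run (8 of 9 without the control probe sets, 10 to 11 with 1 array left out), against 11. Without centring, 3 of 12 were called at site 2 (main 10), 4 between sites in retina (main 9) and 0 for the interaction (limma, main 5), where 3 had an unadjusted p under 0.05. The same change cut the calls over all probe sets to 783 from 4050 at site 2, to 34 from 420 for the interaction, to 300 from 4444 for retina and to 79 from 2074 for cortex between sites. The interaction gave 3 calls with arrays scaled to a median of 100, 3 without the control probe sets (of 9) and 3 to 7 with 1 array left out. Between sites in cortex, 6 probe sets were called with a pseudocount of 50, 7 with centring on the 75th percentile and 3 to 8 with 1 array left out (main 3). Leaving out the control probe sets, by construction, left 1 Actb probe set lower in retina at the first site (main 4) and 0 at site 2 (main 3), the other 2 being higher there. The cause of the other changes was not tested.

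The replicate numbers did not pair the arrays: deviations of same-numbered arrays correlated at 0.0040, 0.039, -0.032, 0.039 and -0.19 at the first site and at 0.037, 0.080 and 0.011 at site 2. With the replicate block, 3 interaction calls were left, and 281 over all probe sets.

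Over all probe sets the interaction gave 258 calls without the intensity trend and 213 to 671 with 1 array left out, and 4978 probe sets were called between sites in cortex without site 2 cortex replicate 2. Centring on the 75th percentile moved the median of all probe sets to -0.12 at site 2, -0.16 between sites in retina and -0.11 in cortex. The split of higher against lower calls moved with centring: for retina between sites from 2879 and 1565 to 114 and 186 (none), 1652 and 2528 (75th percentile) or 2209 and 1944 (quantile), for cortex from 1275 and 799 to 692 and 1258 or 1109 and 1147 (75th percentile, quantile), and for the interaction from 257 and 163 to 13 and 21, 196 and 212 or 220 and 233.

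Signs turned only where the main fit called nothing. One of these, Arpc2 between sites in cortex, was called without site 2 cortex replicate 2 (-0.36, limma adjusted p = 0.0092). At site 2, Fmnl1 was at -0.0011 with a pseudocount of 50, -0.018 without centring, -0.062 with the 75th percentile and -0.16 to 0.26 with 1 array left out, and Acta2 at 0.067 with quantile normalization. With 1 array left out, Myl12b ran from -0.49 to 0.012, Pfn1 from -0.75 to 0.067 and its interaction from -0.56 to 0.25. At the first site the opposite-strand Actb 3′ probe set was at 0.0074 without centring and -0.14 to 0.00010 with 1 array left out, and the 5′ one at -0.26 to 0.0030. Between sites in cortex, Tmsb4x was at 0.035 without centring, 0.044 with quantile normalization and -0.23 to 0.069 with 1 array left out, Fscn1 at -0.095 with the 75th percentile, and Arpc2 at -0.36 to 0.066 with 1 array left out.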
